A study of Mus musculus with 18 samples.

Results

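The genes described here encode 9 proteins of the Tudor-domain family: Tdrd1, Tdrd3, Tdrd5, Tdrd6, Tdrd7, Tdrd9, Tdrd12, Tdrkh and Stk31. They were chosen by name, older synonyms included, and were read by 15 probes on a mouse array that named 27677 genes. A Tudor domain is a protein module that binds methylated arginine or lysine. In germ cells of animals, PIWI proteins, which carry small piRNAs that silence transposons, bear methylated arginines, and Tudor proteins gather them and RNA helicases into granules of RNA and protein beside the nucleus and the mitochondria. Mouse mutants of several of these genes lose transposon silencing or sperm formation. Tdrd3 stands apart, since it acts in many cell types with the topoisomerase Top3b.

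RNA of 18 samples of mouse cells was measured on one-colour Agilent arrays, with 2 samples in each of 9 groups, all labelled male and of a mixed C57BL/6 and 129SV background. The series title places the study in work on RNA-interacting proteins and pluripotency in primordial germ cells, from which eggs and sperm descend. Cells of the first line carried a green fluorescent protein (GFP) reporter for Stella (Dppa3) on a bacterial artificial chromosome, and those of the other line a GFP reporter for the germ cell RNA-binding protein Dazl. Each line is named as a single line of embryonic stem (ES) cells, and every group was sorted on GFP.

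In the Stella line the groups were GFP+ cells after 7 days of differentiation, GFP+ ES cells and GFP- ES cells. In the Dazl line they were GFP+ ES cells, GFP- ES cells, and GFP+ cells after 12 and after 16 days of differentiation. ES cells grew in medium with Lif (leukaemia inhibitory factor) on feeder fibroblasts. Differentiation took place on gelatin after the feeders had been depleted. The remaining groups were GFP+ germ cells from animals with the Dazl reporter, taken from embryonic gonads at stage E13.5 or from juvenile testes at postnatal days 7 to 11, so what was sorted depended on activity of the Dazl reporter there too.

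A level below is a probe's processed signal on the log2 scale, set relative to the 75th percentile of its array (level 0), and levels of different genes are not compared. A change is a difference of group means of such levels with its standard error (SE) from limma, and it is said to have passed where the p-value, adjusted over all 18870 genes tested, was under 0.05. Whether the 2 samples of a group came from separate cultures or animals is not given by the labels, and the p-values speak only of the scatter among these samples, which may be technical. The array's 75th percentile was 103 to 474 signal units, and 50.6% to 68.9% of probes were well above background. The reporters' own genes were higher in the sorted ES cells, Dppa3 by 2.63 ± 0.35 in Stella GFP+ over GFP- cells and Dazl by 4.12 ± 0.16 in Dazl GFP+ over GFP- cells (log2 change ± SE). All 7 germ cell markers examined were well above background in every library. The library labelled E13.5 replicate 1 stood apart: the Y-linked genes Ddx3y and Eif2s3y had levels of -7.45 and -7.29 there, not well above background, and were well above background in every other library. Changes of members at E13.5 are therefore also given without it, and it is called E13.5 replicate 1 below. Leaving out a library leaves its group a single array, so such values show the size of a change, and calls there are not replicated. The day 7 arrays filled slides of their own and alone had the second Feature Extraction protocol and the third scan day, and the E13.5 and juvenile arrays shared a slide and a scan day without cultured cells. In comparisons of either with the other cells, slide, scan day and (for day 7) protocol cannot be told apart from the group.

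The sequence before the transcription start is shown for 5 of the genes, because Tdrd1, Tdrd9 and Stk31 held the same 6-base motif, CACGTG, while Tdrkh and Tdrd12 are shown as a gene that rose beside Stk31 and a gene that fell. Each line gives the 250 bases before the most upstream RefSeq start, 5′ to 3′ on the gene's strand, in the mouse build GRCm38.p6, with CACGTG in capitals.
Tdrd1, chr19:56825959-56826208, plus strand: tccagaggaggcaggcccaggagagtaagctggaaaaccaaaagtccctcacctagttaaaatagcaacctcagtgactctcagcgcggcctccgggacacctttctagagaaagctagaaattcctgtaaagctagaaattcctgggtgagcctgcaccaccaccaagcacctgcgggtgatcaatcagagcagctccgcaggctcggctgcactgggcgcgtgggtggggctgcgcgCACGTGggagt
Tdrd9, chr12:111971309-111971558, plus strand: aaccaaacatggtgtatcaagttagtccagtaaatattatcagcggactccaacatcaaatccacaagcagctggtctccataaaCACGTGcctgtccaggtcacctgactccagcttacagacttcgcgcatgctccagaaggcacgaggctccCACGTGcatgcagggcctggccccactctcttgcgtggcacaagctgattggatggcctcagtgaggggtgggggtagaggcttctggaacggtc
Stk31, chr6:49395289-49395538, plus strand: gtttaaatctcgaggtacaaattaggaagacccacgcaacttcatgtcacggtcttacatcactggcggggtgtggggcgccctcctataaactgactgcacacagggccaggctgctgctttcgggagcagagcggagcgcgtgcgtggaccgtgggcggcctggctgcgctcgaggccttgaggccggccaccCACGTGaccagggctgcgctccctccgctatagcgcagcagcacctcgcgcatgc
Tdrkh, chr3:94412994-94413243, plus strand: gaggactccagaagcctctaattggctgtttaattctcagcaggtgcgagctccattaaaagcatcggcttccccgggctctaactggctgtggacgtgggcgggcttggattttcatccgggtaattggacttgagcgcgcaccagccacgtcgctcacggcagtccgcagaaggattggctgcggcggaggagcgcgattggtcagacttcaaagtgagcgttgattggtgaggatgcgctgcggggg
Tdrd12, chr7:35537745-35537994, minus strand: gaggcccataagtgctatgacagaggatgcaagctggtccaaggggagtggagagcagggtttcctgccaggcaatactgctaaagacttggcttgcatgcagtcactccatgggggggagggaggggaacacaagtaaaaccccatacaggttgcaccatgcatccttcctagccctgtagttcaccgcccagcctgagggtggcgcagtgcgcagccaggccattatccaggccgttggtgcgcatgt
RefSeq promoter windows were found for 8 of the 9 genes, in 14 windows. Searched on both strands in the 250 bases before the start, CACGTG, which reads the same on both strands, occurred in 5 windows of 3 genes, and in 6.02% of 32851 windows of all genes. Some windows of a gene overlap and share a match. The motif began 11 bases before the start of Tdrd1, 165 and 95 bases before that of Tdrd9, and 55 bases before that of Stk31. It was searched for after the sequences had been seen. A match is only a match of letters. The count of CpG dinucleotides in the members' windows ran from 3 to 40, with a median of 20, against a median of 6 in all windows. TCCCGC was present in 2 of the 14 windows and in 16.9% of all windows, and AACNG in 12 of the 14 and in 74.19% of all.

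**Figure D1:**
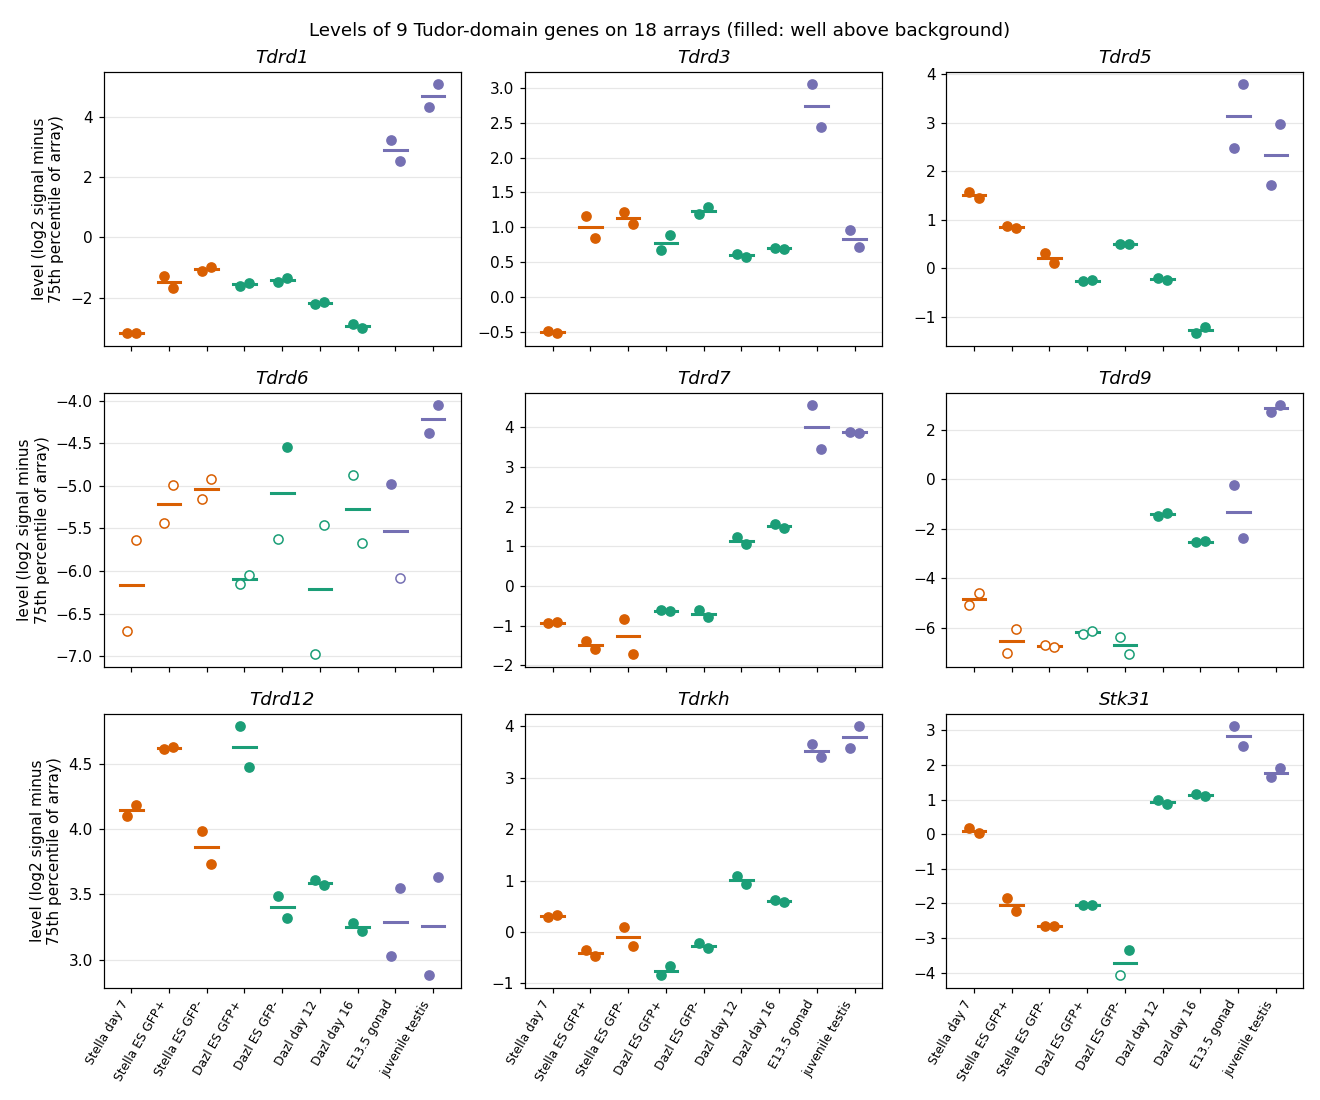
Levels of the 9 genes on all 18 arrays, each by the probe that stands for the gene. Points are samples, filled where the probe was well above background, and bars are group means; the vertical axis is log2 signal minus the array's 75th percentile and differs between panels. Tdrd1, Tdrd7, Tdrkh and Stk31 sit above all ES cell groups at E13.5 and in juvenile testis, Tdrd9 is filled only at day 12, day 16, E13.5 and in juvenile testis, and Tdrd12 spans the narrowest range among the genes well above background on every array.

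Tdrd1 encodes a scaffold with several Tudor domains that binds PIWI proteins at the mitochondria of male germ cells. In the Dazl line its level was -1.60 and -1.50 in GFP+ ES cells, against -1.48 and -1.34 in GFP- ES cells. Along the course from there, it was -2.22 and -2.16 at day 12, -2.88 and -3.01 at day 16, 3.22 and 2.56 at E13.5, and 4.34 and 5.09 in juvenile testis. In the Stella line it was -3.18 and -3.19 at day 7, -1.27 and -1.69 in GFP+ ES cells and -1.10 and -0.97 in GFP- ES cells. Levels in both gonadal groups thus lay above every cultured sample, and day 7 and day 16 lay below every ES cell sample, without overlap. E13.5 cells were higher than Dazl GFP+ ES cells by 4.44 ± 0.27 (21.7-fold, adjusted p = 3.6e-07) and higher than day 16 cells by 5.83 ± 0.27 (56.9-fold, adjusted p = 1.43e-07). In bulk samples fewer cells of a type and less RNA per cell cannot be told apart. Without E13.5 replicate 1 these changes were 4.11 and 5.50. Juvenile germ cells were higher than E13.5 cells by 1.83 ± 0.27 (adjusted p = 0.000365), and by 2.16 without that library. In culture Tdrd1 fell by 1.70 at day 7 against Stella GFP+ ES cells (SE 0.27, adjusted p = 0.00158). At day 16 it fell by 1.39 against Dazl GFP+ ES cells (SE 0.27, adjusted p = 0.00354, -1.51 within the slide that held both), though with normexp background correction the day 16 change was 0.072. A second probe for Tdrd1 was well above background only at E13.5 and in juvenile testis, where it was at least 3.51-fold higher at E13.5 than in Dazl GFP+ ES cells and gave 2.38 for juvenile against E13.5 cells. In the cultured cells it was not well above background, so no change is given for it there. The day 7 and day 16 calls were both lost with the mean over probes and with normexp correction.

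Tdrkh joins a Tudor domain to RNA-binding KH domains on the mitochondrial surface, where piRNA ends are trimmed. In the Dazl line its level was -0.84 and -0.66 in GFP+ ES cells, against -0.20 and -0.32 in GFP- ES cells. It was 1.09 and 0.94 at day 12, 0.62 and 0.58 at day 16, 3.65 and 3.40 at E13.5, and 3.59 and 4.00 in juvenile testis. Stella line levels were 0.30 and 0.34 at day 7, -0.36 and -0.47 in GFP+ ES cells and 0.10 and -0.28 in GFP- ES cells. Every sample after differentiation was above every ES cell sample, and the 2 gonadal groups overlapped. Tdrkh rose by 1.76 ± 0.19 at day 12 against Dazl GFP+ ES cells (3.40-fold, adjusted p = 9.12e-05, 1.60 within the shared slide). It rose by 1.35 ± 0.19 at day 16 (2.54-fold, adjusted p = 0.000613, 1.24 within the shared slide). E13.5 cells were higher than day 16 cells by 2.93 ± 0.19 (7.61-fold, adjusted p = 1.24e-06, 2.80 without E13.5 replicate 1). The change of 0.73 ± 0.19 at day 7 against Stella GFP+ ES cells passed (adjusted p = 0.0217) but lost the call when any of its 4 libraries was left out (adjusted p from 0.0536 to 0.111). The other Tdrkh probe was well above background only in the gonadal groups. The day 12 call was lost with the mean over probes. The day 16 call was lost with normexp correction. The day 7 call was lost under both settings, with 0.46 for the mean over probes (adjusted p = 0.342) and 0.55 for normexp (adjusted p = 0.0958).

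Tdrd9 encodes a helicase with a Tudor domain that works with the PIWI protein Piwil4 in fetal male germ cells. It was not well above background on any ES cell or day 7 array, where its levels ran from -7.08 to -4.61. Levels were -1.48 and -1.35 at day 12, -2.52 and -2.51 at day 16, -0.25 and -2.36 at E13.5, and 2.74 and 2.996 in juvenile testis. The juvenile samples were the highest, and the E13.5 samples lay on both sides of the day 12 samples. Against Dazl GFP+ ES cells Tdrd9 was at least 5.97-fold higher at day 12 (adjusted p = 0.000106), at least 2.79-fold higher at day 16 (adjusted p = 0.000667) and at least 6.46-fold higher at E13.5 (adjusted p = 3e-05). The last bound was 3.11-fold without E13.5 replicate 1. These are bounds against the lowest signal measured above background, or the gene's own where that was brighter. With normexp correction, which adds 50 signal units, none of the 3 passed, with changes of 0.37, 0.54 and 0.39 and adjusted p of 0.474, 0.521 and 0.383. E13.5 cells differed from day 16 cells by 1.21 ± 0.54 (adjusted p = 0.0923). That difference was 0.16 without E13.5 replicate 1 and 2.27 without replicate 2. Juvenile germ cells were higher than E13.5 cells by 4.17 ± 0.54 (17.99-fold, adjusted p = 0.000156), and by 5.22 without replicate 1. The day 7 comparison passed with an adjusted p of 0.0476, but all 4 arrays were at background, so no fold is given, and with normexp correction its sign turned to -0.69.

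Tdrd12, listed in the array's design under an older clone name, encodes a helicase-like Tudor protein that supports piRNA production with Exd1. In the Dazl line its level was 4.79 and 4.47 in GFP+ ES cells, against 3.49 and 3.32 in GFP- ES cells. It was 3.61 and 3.57 at day 12, 3.28 and 3.22 at day 16, 3.02 and 3.55 at E13.5, and 2.88 and 3.64 in juvenile testis. In the Stella line it was 4.10 and 4.19 at day 7, 4.61 and 4.63 in GFP+ ES cells and 3.99 and 3.73 in GFP- ES cells. The GFP+ ES cells of both lines were the highest, and the gonadal groups overlapped with day 16. Tdrd12 was higher in Dazl GFP+ than GFP- ES cells by 1.23 ± 0.25 (2.34-fold, adjusted p = 0.0288). The changes within its 2 slides were 1.30 and 1.15, and with slide as a block the call was lost (adjusted p = 0.0890). Against Dazl GFP+ ES cells it was lower at day 12 (-1.04 ± 0.25, adjusted p = 0.0108), at day 16 (-1.38 ± 0.25, adjusted p = 0.00261) and at E13.5 (-1.34 ± 0.25, adjusted p = 0.00122, and -1.08 without E13.5 replicate 1). A second probe, also well above background on all arrays, gave 1.30 in the Dazl sort and -1.16, -1.44 and -2.49 in the same 3 comparisons. Against day 16 cells, however, E13.5 cells gave -1.06 with the second probe (adjusted p = 0.00543) and 0.03 with the first. The sort, day 12 and E13.5 calls were lost with normexp correction. The sort call was lost without any of its 4 libraries (adjusted p from 0.108 to 0.207). The day 12 call was lost without either day 12 library (adjusted p = 0.0581 and 0.0607) or without Dazl GFP+ replicate 1 (adjusted p = 0.0885), and with slide as a block (adjusted p = 0.0641).

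Tdrd7 and Tdrd5 pair Tudor domains with LOTUS domains, and both proteins belong to the chromatoid body, the large granule of spermatids. Tdrd7 had levels of -0.61 and -0.64 in Dazl GFP+ ES cells, against -0.62 and -0.78 in Dazl GFP- ES cells. It was 1.23 and 1.05 at day 12, 1.56 and 1.48 at day 16, 4.56 and 3.47 at E13.5, and 3.89 and 3.87 in juvenile testis. It was -0.92 on both day 7 arrays, -1.38 and -1.60 in Stella GFP+ ES cells and -0.82 and -1.72 in Stella GFP- ES cells. Day 12 and day 16 samples lay between all ES cell samples and both gonadal groups. Tdrd7 rose by 1.77 ± 0.33 at day 12 (3.40-fold, adjusted p = 0.00272) and by 2.14 ± 0.33 at day 16 (4.41-fold, adjusted p = 0.000932). On the slide shared with ES cells these were 1.69 and 2.11. E13.5 cells were higher than day 16 cells by 2.50 ± 0.33 (5.65-fold, adjusted p = 0.000148), and by 1.95 without E13.5 replicate 1. Day 7 gave 0.57 ± 0.33 (adjusted p = 0.249).

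Tdrd5 had levels of -0.26 and -0.25 in Dazl GFP+ ES cells, against 0.50 and 0.51 in Dazl GFP- ES cells. It was -0.19 and -0.24 at day 12, -1.34 and -1.21 at day 16, 2.48 and 3.79 at E13.5, and 1.72 and 2.97 in juvenile testis. Stella line levels were 1.57 and 1.45 at day 7, 0.87 and 0.82 in GFP+ ES cells and 0.30 and 0.11 in GFP- ES cells. The gonadal groups overlapped with each other and lay above every cultured sample. Among the cultured groups day 7 was the highest and day 16 the lowest. E13.5 cells were higher than Dazl GFP+ ES cells by 3.39 ± 0.41 (10.5-fold, adjusted p = 5.39e-05) and higher than day 16 cells by 4.41 ± 0.41 (21.3-fold, adjusted p = 1.26e-05). Leaving out E13.5 replicate 1 gave 4.04 (16.5-fold) and 5.07 (33.5-fold). The day 16 change of -1.02 ± 0.41 against Dazl GFP+ ES cells did not pass (adjusted p = 0.0885). With quantile normalization it did (adjusted p = 0.0476). It also passed without E13.5 replicate 1. That library is not in this comparison, so the change stayed at -1.02 and only the scatter shared over the groups differed. A second Tdrd5 probe, not well above background in Dazl GFP+ ES cells or at day 16, was at least 6.89-fold higher at E13.5 than in the first of these and at least 13.2-fold higher than in day 16 cells.

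Stk31 joins a Tudor domain to a protein kinase domain and is made mainly in germ cells. In the Dazl line its level was -2.05 and -2.04 in GFP+ ES cells, against -4.07 and -3.35 in GFP- ES cells. It was 1.0 and 0.86 at day 12, 1.16 and 1.11 at day 16, 3.12 and 2.56 at E13.5, and 1.64 and 1.92 in juvenile testis. In the Stella line it was 0.17 and 0.04 at day 7, -1.85 and -2.23 in GFP+ ES cells and -2.65 on both arrays of GFP- ES cells. Stk31 was below all other groups in Dazl GFP- ES cells, intermediate after differentiation and highest at E13.5. It rose by 2.15 ± 0.26 at day 7 (4.43-fold, adjusted p = 0.000344), by 2.97 ± 0.26 at day 12 (7.85-fold, adjusted p = 1.72e-05) and by 3.18 ± 0.26 at day 16 (9.05-fold, adjusted p = 1.22e-05), each against GFP+ ES cells of its own line. Within the slide shared with the ES cells, the day 12 and day 16 changes were 2.90 and 3.15. E13.5 cells were higher than day 16 cells by 1.71 ± 0.26 (3.27-fold, adjusted p = 0.000334), and juvenile cells were lower than E13.5 cells, with a change of -1.06 ± 0.26 (adjusted p = 0.00768). Without E13.5 replicate 1 these were 1.43 and -0.78. In the Dazl sort Stk31 was higher in GFP+ cells by 1.67 ± 0.26 (3.18-fold, adjusted p = 0.00817), with 2.03 and 1.31 within the 2 slides. Its probe was well above background on 1 of the 2 Dazl GFP- arrays. This call was lost without Dazl GFP- replicate 1 (change 1.31, adjusted p = 0.0827), without Dazl GFP+ replicate 1 (adjusted p = 0.0626), without Dazl GFP+ replicate 2 (adjusted p = 0.0700) and with normexp correction, which also ended the day 7 call.

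Tdrd6, a component of the chromatoid body of spermatids, was at or near background in nearly all samples. Its probe was well above background on both juvenile arrays (levels -4.38 and -4.05), on E13.5 replicate 1 (-4.98) and on Dazl GFP- replicate 2 (-4.55), and on no other array, where levels ran from -6.98 to -4.87. It entered the test only through juvenile testis. The change of 1.31 ± 0.56 for juvenile against E13.5 cells did not pass (adjusted p = 0.0958). Without E13.5 replicate 1 it would rest on a single E13.5 array at background, so no change is read from it.

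Tdrd3, the member known from many cell types, had levels of 0.67 and 0.89 in Dazl GFP+ ES cells, against 1.18 and 1.30 in Dazl GFP- ES cells. It was 0.62 and 0.58 at day 12, 0.71 and 0.69 at day 16, 3.05 and 2.44 at E13.5, and 0.96 and 0.71 in juvenile testis. Stella line levels were -0.48 and -0.52 at day 7, 1.16 and 0.85 in GFP+ ES cells and 1.22 and 1.04 in GFP- ES cells. E13.5 was the highest group and day 7 the lowest, while the juvenile samples lay among the ES cell samples. E13.5 cells were higher than day 16 cells by 2.05 ± 0.21 (4.13-fold, adjusted p = 2.8e-05), and juvenile cells lower than E13.5 cells, with a change of -1.91 ± 0.21 (adjusted p = 5.17e-05). Without E13.5 replicate 1 these were 1.74 and -1.61. Tdrd3 fell by 1.503 at day 7 (SE 0.21, adjusted p = 0.000835). A second probe followed the same directions, with 2.31, -1.92 and -1.27, while the remaining probe, not well above background on every array, gave -0.31, -1.35 and 0.83. With the mean over its probes the day 7 call of Tdrd3 was lost.

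**Figure D2:**
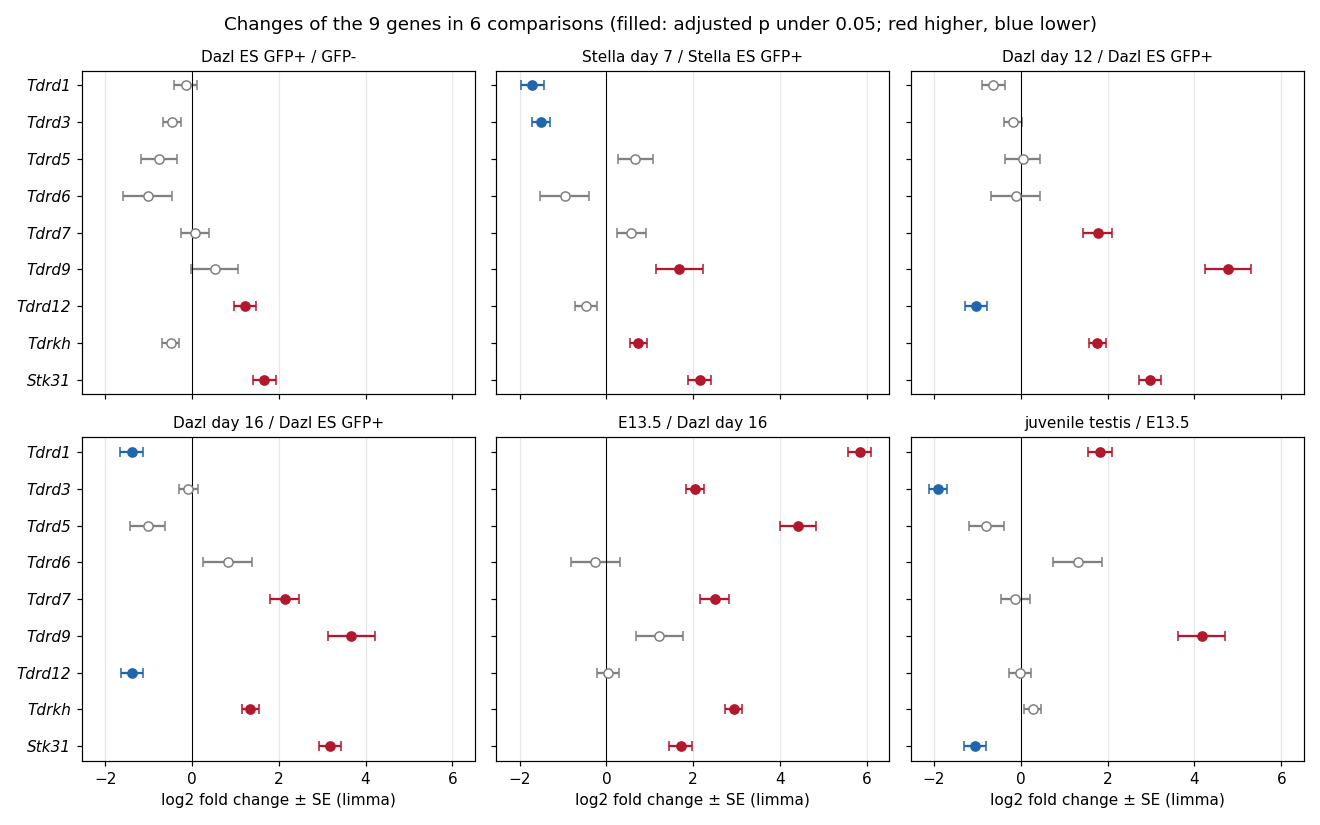
Log2 fold changes of the 9 genes in 6 comparisons, with the standard error from limma as bars. Filled points passed at an adjusted p under 0.05, red higher and blue lower in the group named first. Stk31 is filled and red in every panel except juvenile testis over E13.5, where it is blue, while Tdrd1 turns from blue at day 7 and day 16 to red at E13.5 and in juvenile testis.

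Across the reporter sorts of undifferentiated ES cells, Stk31 and Tdrd12 were the only members that passed, both higher in Dazl GFP+ than in Dazl GFP- cells. That is 2 of 9 higher and 0 lower, where 2.87% of all genes passed, 1.47% as higher and 1.39% as lower. Summed over the 7 feeder fibroblast markers, signal relative to the 75th percentile was 42.6 and 38.8 in Dazl GFP+ cells, against 9.49 and 8.94 in Dazl GFP- cells, and its part in the result was not tested. In the Stella sort limma called none of the 9, against 0.44% of all genes (0.0901% higher and 0.35% lower), although Tdrd12 and Stk31 had unadjusted p-values under 0.05, with changes of 0.76 ± 0.25 (adjusted p = 0.404) and 0.61 ± 0.26 (adjusted p = 0.676). Within the 2 slides of the Stella sort the changes were 0.62 and 0.90 for Tdrd12 and 0.80 and 0.42 for Stk31. No member passed for the difference between the sorts (0.0318% of all genes did, 0.0053% upward and 0.0265% downward), and 2 had an unadjusted p under 0.05. Among them Tdrd5, which gave 0.64 ± 0.41 in the Stella and -0.76 ± 0.41 in the Dazl sort, differed by 1.40 ± 0.57 (adjusted p = 0.930).

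After 7 days in the Stella line, 3 members passed as higher (Stk31, Tdrkh and the dim Tdrd9) and 2 as lower (Tdrd1 and Tdrd3), where 20.6% of all genes passed, 7.62% as higher and 13% as lower. The members' median change was 0.57, against -0.15 over all genes. After 12 days in the Dazl line, 4 passed as higher (Tdrd9, Stk31, Tdrd7 and Tdrkh) and 1 as lower (Tdrd12), where 27.3% of all genes passed, 13.1% as higher and 14.2% as lower, and the members' median was 0.04, against -0.11 over all genes. After 16 days, 4 passed as higher (Stk31, Tdrd7, Tdrkh and Tdrd9) and 2 as lower (Tdrd1 and Tdrd12), where 24.7% of all genes passed, 11.1% as higher and 13.6% as lower. The members' median there, 0.83 against -0.15 over all genes, was the value of Tdrd6, which was at background. The day 12 and day 16 comparisons share their ES cell samples. Between day 16 and day 12, limma called none of the 9, against 1% of all genes (0.609% higher and 0.392% lower), and 2 members, Tdrd1 and Tdrd5, had an unadjusted p under 0.05. The summed feeder markers were 2.90 and 2.998 at day 12 and 3.29 and 3.23 at day 16, below those of Dazl GFP+ ES cells. The sum over 5 meiotic markers (Stra8, Sycp3, Sycp1, Rec8 and Dmc1) was 539.5 and 507 at day 12 and 414 and 392 at day 16, against 5.24 and 4.63 in Dazl GFP+ ES cells. At day 7 the meiotic sum was 22.6 and 21.9, against 6.50 and 12.5 in Stella GFP+ ES cells. The part of either marker list in these results was not tested.

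In germ cells of the E13.5 gonad, set against Dazl GFP+ ES cells, 7 members passed as higher (Tdrd1, Tdrd3, Tdrd5, Tdrd7, Tdrd9, Tdrkh and Stk31) and Tdrd12 as lower, where 44.8% of all genes passed, 23.4% as higher and 21.4% as lower. The largest measured changes were 4.88 ± 0.26 for Stk31 (29.6-fold, adjusted p = 1.37e-07), 4.64 ± 0.33 for Tdrd7 (24.9-fold, adjusted p = 1.28e-06), 4.44 for Tdrd1 and 4.28 ± 0.19 for Tdrkh (19.4-fold, adjusted p = 5.9e-08). Leaving out replicate 1 gave 4.60 for Stk31, 4.09 for Tdrd7, 4.11 for Tdrd1 and 4.15 for Tdrkh. Tdrd3 gave 1.97 ± 0.21, and 1.66 without that library. The members' median was 4.28, against 0.05 over all genes, and 4.04 without replicate 1. Against day 16 cells 6 members passed as higher and none as lower, where 42.5% of all genes passed, 24.1% as higher and 18.4% as lower. The members' median was 2.05 there, against 0.18 over all genes, and 1.74 without replicate 1. The members that passed were Tdrd1, Tdrd5, Tdrkh, Tdrd7, Tdrd3 and Stk31, with the values given above, while Tdrd9 (1.21), Tdrd12 (0.03) and Tdrd6 (-0.26) did not. Both comparisons share the E13.5 samples, and this one shares the day 16 samples with day 16 against ES cells. Without replicate 1, which leaves a single E13.5 array, the changes of members that had passed kept their direction. Feeder fibroblast markers summed to 1.45 and 1.68 at E13.5, against 42.6 and 38.8 in Dazl GFP+ ES cells, with 7 of 7 passing as lower. Pluripotency markers summed to 22.7 and 54.6, against 171 and 176, with 4 of 5 lower. The 2 libraries of the E13.5 group differed in meiotic markers, whose sum was 655 in replicate 1 and 13.3 in replicate 2, and in Sertoli cell markers, whose sum was 0.315 and 5.12. Tdrd5 and Tdrd12 were higher in replicate 2, and the other members in replicate 1. The part of these markers was not tested.

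In juvenile testis against E13.5, Tdrd9 and Tdrd1 passed as higher and Tdrd3 and Stk31 as lower, which is 2 of 9 in each direction where 34.8% of all genes passed, 16% as higher and 18.9% as lower. The members' median was -0.03, against -0.08 over all genes. Without E13.5 replicate 1 the members' median was 0.39. All 4 arrays lay on the same slide. The 4 changes kept their direction without E13.5 replicate 1, which leaves a single E13.5 array. Tdrd5 did not pass (-0.79, adjusted p = 0.158). Its change was -1.45 without E13.5 replicate 1 and -1.42 without juvenile replicate 2. Feeder fibroblast markers summed to 6.95 and 8.22 in juvenile cells, against 1.45 and 1.68 in E13.5 cells, with 5 of 7 passing as higher and 0 as lower. Pluripotency markers summed to 2.67 and 3.85, against 22.7 and 54.6, with 5 of 5 lower. Sertoli markers summed to 11.4 and 4.64 in juvenile cells, against 0.315 and 5.12 in E13.5 cells, with 4 of 7 higher and 0 lower. Meiotic markers summed to 253 and 149, against 655 and 13.3. For germ cell markers the sums were 66.05 and 93.5, against 344.3 and 815.8, with 4 of 7 lower and 0 higher. Their part was not tested.

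**Figure D3:**
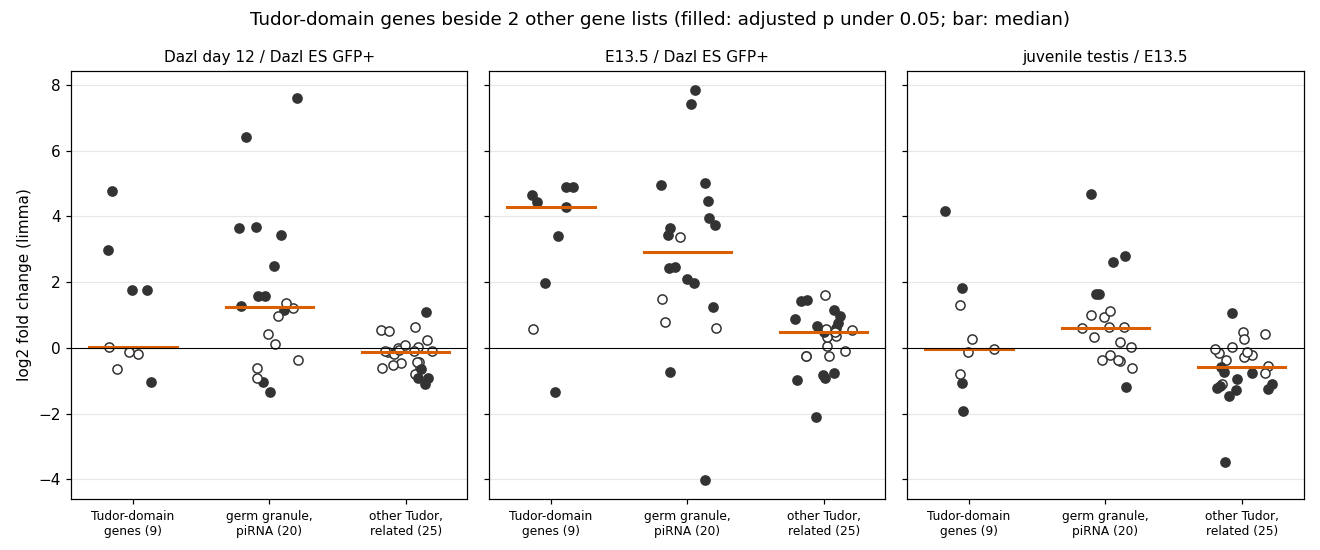
Log2 fold changes of the 9 genes, of 20 germ granule and piRNA partners and of 25 other Tudor-domain or related genes in 3 comparisons. Each point is a gene, filled where the adjusted p was under 0.05, and orange bars are medians. At E13.5 against Dazl ES GFP+ the median of the 9 genes was 4.28, that of the partners 2.91 and that of the other Tudor-domain genes 0.48.

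Genes that act beside the Tudor proteins in germ granules or in piRNA production were read from a list of 26, of which 22 were on the array and 20 could be tested. At day 12 against Dazl GFP+ ES cells, 10 of the 20 passed as higher and 2 as lower, beside 13.1% and 14.2% of all genes. Those with the smallest p were Asz1, a mitochondrial partner of the PIWI pathway (at least 20.6-fold), Fkbp6, a co-chaperone of piRNA loading (7.60 ± 0.51), Mael, the granule protein maelstrom (3.44 ± 0.35), and Mov10l1, the helicase that starts piRNA processing (3.64 ± 0.38). The falls were those of the helicases Ddx39a (-1.35 ± 0.26) and Ddx25 (-1.03 ± 0.27). At day 16, 9 passed as higher and 1, Ddx39a, as lower, beside 11.1% and 13.6% of all genes. At day 7 of the Stella line 4 passed as higher and 2 as lower, beside 7.62% and 13%, Fkbp6 being highest at 4.15 ± 0.51. Rnf17, itself a Tudor protein of germ cells, was higher at day 7 by 1.89 ± 0.31. In the Dazl sort, where 1.47% of all genes passed as higher, 3 partners did, Fkbp6 (at least 4.63-fold), Mov10l1 (at least 2.47-fold) and Tex19.1 (1.42 ± 0.32), and in the Stella sort only Piwil1 passed, as lower (-1.61 ± 0.26), as did 0.35% of all genes.

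At E13.5 against Dazl GFP+ ES cells, 14 partners passed as higher and 2 as lower, beside 23.4% and 21.4% of all genes, with a median of 2.91 (0.05 over all genes). Without E13.5 replicate 1 that median was 3.07. The germ cell helicase Ddx4 was higher by 4.47 ± 0.23 and Asz1 at least 41.8-fold, while the falls were those of Morc1 (-4.01 ± 0.38) and Ddx39a (-0.74 ± 0.26). Without that library Ddx4 gave 4.17, Asz1 at least 42.2-fold, Morc1 -3.88 and Ddx39a -0.40. Against day 16 cells, 11 passed as higher, Ddx4 with 3.61 ± 0.23, and Morc1 and Gtsf1 as lower (-2.92 ± 0.38 and -2.21 ± 0.49), beside 24.1% and 18.4% of all genes. Without that library Ddx4 gave 3.30, and Morc1 and Gtsf1 gave -2.79 and -3.08. In juvenile against E13.5 cells 5 passed as higher, among them Piwil1, a PIWI protein of later spermatogenesis (2.61 ± 0.26), and Henmt1, the piRNA methyltransferase (4.68 ± 0.60), and Dnd1 as lower (-1.21 ± 0.40), beside 16% and 18.9% of all genes. Leaving out E13.5 replicate 1 gave 2.76 for Piwil1, at least 38.6-fold for Henmt1 and -1.54 for Dnd1.

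A further list held 25 genes with Tudor domains outside the germ granule or with related roles, all of them tested. In culture 1 passed as higher and 2 as lower at day 7, 1 and 4 at day 12, and 1 and 1 at day 16, where 20.6%, 27.3% and 24.7% of all genes passed in either direction. Prmt5, which makes the arginine marks that Tudor domains bind, fell by 1.10 at day 12 (SE 0.32, adjusted p = 0.025), and its cofactor Wdr77 by 0.92 (SE 0.29, adjusted p = 0.0351). At E13.5 9 passed as higher and 5 as lower against Dazl GFP+ ES cells, beside 23.4% and 21.4% of all genes. Their median was 0.48, and 0.38 without E13.5 replicate 1. In juvenile against E13.5 cells 1 passed as higher and 11 as lower, beside 16% and 18.9% of all genes. The median there was -0.57, and -0.76 without that library. Top3b, the partner of Tdrd3, was higher at E13.5 than in Dazl GFP+ ES cells by 0.67 ± 0.22 (adjusted p = 0.0287, lost without E13.5 replicate 1 at 0.0943) and lower in juvenile than in E13.5 cells, with a change of -1.16 ± 0.22 (adjusted p = 0.00206).

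Over the 9 groups, 8 members passed the F test for any difference between groups, as did 76.2% of all genes, and Tdrd6 did not (adjusted p = 0.0784). Group means spanned 7.90 for Tdrd1, 6.55 for Stk31, 5.50 for Tdrd7, 4.54 for Tdrkh, 4.41 for Tdrd5, 3.24 for Tdrd3 and 1.38 for Tdrd12 on the log2 scale. With dim arrays set at the lowest level measured above background, or their own level where brighter, Tdrd9 spanned at least 7.49. No span is given for Tdrd6, because under that rule its highest group, Dazl GFP+ ES cells, was dim on both arrays. As a description over the 9 group means, the most alike pair was Tdrd7 and Tdrkh (Pearson r = 0.946), followed by Tdrd7 with Tdrd9 (0.912) and Tdrd9 with Tdrkh (0.897). Tdrd12 correlated negatively with every other member, from -0.193 with Tdrd5 to -0.723 with Tdrd7. Among 7269 named genes whose group means spanned at least 2, the pattern of Tdrkh was most like that of Exd1 (0.992), that of Stk31 like Hormad1 (0.990), 8030474K03Rik (0.988) and Smc1b (0.986), and that of Tdrd9 like Ttc19 (0.996) and Hspa2 (0.995). Tdrd7 was most like Cpxm1 and Prkcq (0.993 each), Tdrd1 like 2210406O10Rik and Rasd2 (0.982 each), Tdrd3 like Celsr2 (0.973) and Tdrd5 like Zc2hc1c (0.948). These points share arrays and slides, and the ES cell and day 7 levels of Tdrd9 in them are readings at background. So are most levels of Tdrd6, which was well above background on 4 arrays. The E13.5 means in the spans and correlations average 2 libraries whose meiotic marker sums were 655 and 13.3. Neither spans nor correlations are given without E13.5 replicate 1.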

How the data were processed

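The 18 samples were hybridised in 1 colour, 2 in each of 9 groups, per the labels. The authors extracted spot intensity with Agilent Feature Extraction 9.1.3.1 under 2 protocols, per the file headers, and the deposited intensity is background-subtracted and linear. A table of group means that the authors deposited, intensity relative to the array median, was used only as an alternative. Aligner and genome build do not arise for these arrays.

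Of 43379 spots that are not controls, repeats of a probe were averaged, and outlier flags removed 183 of 41174 probes. The deposited intensity was put on the log2 scale here and scaled to each array's 75th percentile. Probes were named through the reference table by accession (22951), symbol (6659) or synonym (3096), and 8468 kept the name in the files. Probes were kept (28103) if some group had both its arrays flagged as well above background. The probe with the highest mean stood for its gene, which gave 18870 genes, and all 15 probes of the 9 members passed. Saturation was not seen on any spot. Precision is limited by the number of arrays, which hold no counts.

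One limma model (version 3.58.1, R 4.3.3) held all 9 groups, leaving 9 residual degrees of freedom beside 2.39 from the prior, whose SD was 0.289, and 10 comparisons and an F test were drawn from the fit with two-sided tests. P-values were adjusted over all genes (Benjamini-Hochberg). The code was tested on simulated data. A gene not well above background in its lower group has an "at least" fold, and none is given where both groups were dim. Figures were drawn with matplotlib 3.10.9 under Python 3.11.15, and tables made with numpy 2.4.6 and pandas 2.3.3.

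The members and lists were chosen with earlier results of these data known. The text names all members, up to 4 partners or other Tudor genes per direction by smallest p, and up to 3 genes of the most similar pattern per member. The change of Top3b at E13.5 falls outside that and was named after its value was seen. Alternatives were quantile normalization, normexp with an offset of 50, no filter on dim probes and the mean over probes. Further ones were slide as a block where that could be fitted, replicate number as a block, leaving out each library and the authors' means. Replicate numbers follow slides in part (replicate 1 of all ES groups on the same slide, and day 12 and day 16 by number), but not every pair of groups deviated together by number, so they were not treated as pairs.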

Additional observations from a re-analysis of the deposited data

How the results depend on the processing

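Of 36 calls of members, 21 passed in the same direction under every alternative run. Among them were those of Stk31 and Tdrd7 at day 12 and day 16 and those of Tdrd1, Tdrd3, Tdrd5, Tdrd7, Tdrkh and Stk31 at E13.5. The matching share over all genes is not given, so the count of kept calls is not read as particular to the members. Slide as a block could not be fitted at day 7 or for E13.5 against cultured cells, where slide and group coincide. Slide as a random effect was run there instead, with a correlation of -0.053 within slides, so those calls carry no correction for slide. Counts of members called moved with normexp correction, to 0 in the Dazl sort (2 as reported) and 1 at day 7 (5). They were 3 at day 12 (5), 3 at day 16 (6) and 2 for day 16 against day 12 (0). Over all genes normexp called 83 in the Dazl sort (541 as reported) and 932 at day 7 (3887). It called 1656 at day 12 (5149) and 1046 at day 16 (4659). For day 16 against day 12 it called 7189 genes (189), so the 2 calls there are not read as particular to the members. The mean over probes gave 2 members at day 7 beside 3617 of all genes, and slide as a block 1 member in the Dazl sort beside 182. Leaving out a library, which leaves its group a single array, could lower the counts in the Dazl sort, at day 7 and at day 12. It could raise those at day 16, for E13.5 against day 16, for juvenile against E13.5 cells and in the F test. With normexp correction the sign turned for Tdrd9 at day 7 (-0.69), Tdrd1 at day 16 (0.072) and Tdrd6 at E13.5 against Dazl GFP+ ES cells (-1.33, adjusted p = 0.00229). That setting adds 50 signal units, which compresses dim probes. It also starts from the mean signal and local background of each spot rather than the processed signal. Tdrd12, well above background on every array, changed too, from 1.23 to 0.77 in the Dazl sort. The cause of these changes was not tested. Normexp moved the median of all genes, for example to -0.58 for E13.5 against day 16 (0.18 as reported). For single members, 903 tested values under alternatives were unchanged in direction and call, 37 lost and 11 gained a call, 3 turned sign as above, and 45 that had not passed changed sign or came to 0. The authors' deposited group means carry no test and gave the same sign in 87 of 90 values. The values of partners and other Tudor genes and the bounds without E13.5 replicate 1 were added after the data had been seen.

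Counts over all genes varied more. They ran from 10 to 256 in the Stella sort (83 as reported), 62 to 1356 in the Dazl sort (541), 0 to 76 for the difference between sorts (6) and 75 to 7189 for day 16 against day 12 (189). The lowest counts were 932 at day 7 (3887), 1656 at day 12 (5149) and 1046 at day 16 (4659), all with normexp. The highest were 7181 at day 16, 13952 for E13.5 against Dazl GFP+ ES cells (8459) and 13771 for E13.5 against day 16 (8015). The share of calls that were higher, with normexp, was 10% in the Stella sort (20.5% as reported), 47.7% at day 7 (37.0%), 28.9% in the Dazl sort (51.4%), 18.1% at day 16 (44.9%), 79.7% for day 16 against day 12 (60.8%), 30.1% for E13.5 against Dazl GFP+ ES cells (52.3%) and 34.0% for E13.5 against day 16 (56.8%). Without the filter on dim probes it was 35.6% at day 12 (47.9%), 29.3% at day 16 and 32.3% for E13.5 against Dazl GFP+ ES cells. With quantile normalization it was 47.3% at day 7 and 50% for the difference between sorts (16.7%), and with slide as a block 0% for that difference.

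Same-numbered arrays of different groups deviated together in 8 of 36 pairs of groups at a correlation over 0.1 (range -0.14 to 0.558), so the numbers were not taken as pairs, although they follow the slides in part. A replicate block ended 1 call, that of Tdrd9 at day 7 (1.68, adjusted p = 0.0570), and changed no other. Signal over background limits Tdrd6 and Tdrd9 in ES cells.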
